A study of Mus musculus with 8 samples.

Results

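The Zfp series is the numbered set of mouse genes for zinc finger proteins, symbols made of Zfp and a number. Of 55359 identifiers in the deposited table of BMDMs (bone-marrow-derived macrophages, Mϕ), 382 were protein-coding genes of this kind in the mouse GENCODE annotation. The 108 genes described here reached 100 normalized counts in the mean of all 8 samples. Zfp36, which binds mRNA through zinc fingers of another kind, was left out. A further 274 genes of the series fell below the threshold, and 175 of these were still tested. The members were selected on their level over all samples, so that levels are given as a description. The threshold used no difference between groups. A mean over all samples still depends on how far a gene moved, so that a gene low in some groups can fall below it. Just inside the threshold lay Zfp175 (mean 100.8), Zfp526 (103) and Zfp809 (103.7), and just outside it Zfp503 (99.0), Zfp87 (97.6) and Zfp398 (97.4). In 87 of the 108 genes, each of the 4 group means was at least 100, while 21 had at least 1 group mean below it.

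All BMDMs came from femurs of adult C57BL/6 wild-type mice of both sexes and were grown with M-CSF and GM-CSF. Ctrl Mϕ were not treated, and LPS Mϕ received LPS (100 ng/mL) with murine IFNγ (100 U/mL) for 6 h. Eff Mϕ were kept for 16 h with 5 apoptotic NIH-3T3 cells each, and LPSEff Mϕ had the same co-culture, a wash and then the 6 h stimulation. The NIH-3T3 cells are mouse fibroblasts of a line that carries a human caspase-8 domain, which a dimerizer (10 nM, also present in the co-culture) activates to kill them. Total RNA of CD45+ cells, taken by magnetic beads, was sequenced after rRNA depletion, with 2 samples per group. It is not stated which mice gave which sample, so that p-values measure the spread between these samples, which may be technical.

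Most proteins of this series carry rows of C2H2 zinc fingers, in which paired cysteines and histidines hold a zinc ion and each finger reads a few bases of DNA. Many also carry a KRAB domain, which recruits TRIM28 (KAP1) and, through it, the histone methyltransferase SETDB1 and heterochromatin protein 1, so that the bound DNA is silenced. Such KRAB zinc finger proteins are known for holding retroelements silent and for keeping imprinted genes methylated. Others of the series bind GC-rich promoters, hold corepressor complexes together, or act on RNA and ribosomes.

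The 8 samples held 3481288 to 12020918 reads on genes, and the 108 Zfp genes took 0.344% to 0.504% of the normalized counts of a sample. The rarest of them in any sample still had 43 reads. The stimulation was plain in its marker genes, since 8 LPS/IFNγ response genes summed to 1272 to 1776 normalized counts in unstimulated samples and 129316 to 148572 in stimulated ones. The 10 Mϕ markers summed to 108856 to 164148 in all samples. The 22 fibroblast markers summed to 1503 to 1626 in Ctrl, 3473 to 6238 in LPS, 5580 to 9226 in Eff and 12626 to 15228 in LPSEff. None of them was listed at 0 in a whole group, with co-culture or without. Their part in the differences below was not tested. The 10 markers of other bone marrow cells summed to 764 to 1032 in Ctrl, 1159 to 1476 in Eff, 1806 to 2275 in LPS and 1845 to 2509 in LPSEff. Of the 5 of them that were tested, 3 were called higher in LPS vs Ctrl and 1 in LPSEff vs Eff (limma). For efferocytosis, 1 was called higher in Eff vs Ctrl and 1 in the mean of both efferocytosis effects. The part of these markers in the differences below was not tested. In bulk RNA, fewer cells of a type and less RNA per cell cannot be told apart.

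To show what lies at the start sites of the genes that the results turn on, 4 promoters are printed 5′ to 3′ on the strand of the gene, each 250 bases before and 50 after the start of the Ensembl canonical transcript, read from GRCm39. Capitals mark a match to a short motif on either strand. These are Zfp800 and Zfp281, the 2 largest rises called after LPS/IFNγ, Zfp146, the largest fall, and Zfp318, the single gene called for efferocytosis.
Zfp800 (chr6:28262379-28262678, minus strand; capitals, κB core): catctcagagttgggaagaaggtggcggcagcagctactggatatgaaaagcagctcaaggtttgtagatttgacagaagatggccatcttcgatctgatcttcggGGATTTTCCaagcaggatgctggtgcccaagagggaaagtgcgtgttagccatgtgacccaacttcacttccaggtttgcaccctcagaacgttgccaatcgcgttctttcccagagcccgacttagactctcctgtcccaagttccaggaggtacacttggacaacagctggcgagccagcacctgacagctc
Zfp281 (chr1:136552389-136552688, plus strand; capitals, GC boxes): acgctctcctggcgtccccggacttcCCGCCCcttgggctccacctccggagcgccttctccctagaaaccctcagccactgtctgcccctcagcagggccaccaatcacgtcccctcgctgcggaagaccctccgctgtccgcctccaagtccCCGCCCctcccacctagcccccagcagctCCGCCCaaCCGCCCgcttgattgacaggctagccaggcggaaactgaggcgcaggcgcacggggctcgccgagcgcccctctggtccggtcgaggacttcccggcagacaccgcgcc
Zfp146 (chr7:29869147-29869446, minus strand; capitals, GAS core): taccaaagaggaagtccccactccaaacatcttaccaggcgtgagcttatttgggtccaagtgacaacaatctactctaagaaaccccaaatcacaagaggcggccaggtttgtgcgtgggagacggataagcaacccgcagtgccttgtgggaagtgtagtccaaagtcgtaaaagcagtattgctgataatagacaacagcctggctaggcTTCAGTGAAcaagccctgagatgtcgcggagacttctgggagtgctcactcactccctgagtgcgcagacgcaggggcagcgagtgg
Zfp318 (chr17:46694391-46694690, plus strand; capitals, GC boxes): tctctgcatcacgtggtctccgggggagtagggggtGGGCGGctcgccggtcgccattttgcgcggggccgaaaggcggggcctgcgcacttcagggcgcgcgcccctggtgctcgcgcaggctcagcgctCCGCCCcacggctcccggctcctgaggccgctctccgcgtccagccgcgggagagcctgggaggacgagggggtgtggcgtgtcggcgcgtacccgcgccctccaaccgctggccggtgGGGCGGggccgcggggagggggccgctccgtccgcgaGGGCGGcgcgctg
The window of Zfp800 held 1 match to the κB core GGNNTTTCC, letters like those that NF-κB proteins read. Such a match was found in 6.48% of the 108 windows and in 5.78% of 21770 promoters of protein-coding genes in windows of the same length. The window of Zfp146 held the GAS core TTCNNNGAA, found in 13.9% of the 108 windows and 8.81% of all. The GC box GGGCGG was found in 58.3% of the 108 windows and 42.5% of all, and the ETS core CCGGAAG in 22.2% and 10.3%. The ISRE core GAAANNGAA, part of the site of interferon-activated factors, was in 7.41% and 8.78%. The CRE (TGACGTCA) was in 4.63% and 2.44%, and the E2F core TTTCCCGC in 0.926% and 1.36%. The median GC content was 57.8% in the 108 windows and 54.3% in all of them, and matches of different motifs could overlap. A match describes letters only.

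Levels were compared between genes per kb of exon, the total length of all annotated exons of a gene. On this scale the 108 genes ran from 9.04 (Zfp386) to 160.8 (Zfp106) normalized counts per kb, with a median of 28.1. The 5 highest were Zfp106, an RNA-binding protein, at 160.8, Zfp217, which binds the CtBP and CoREST corepressors, at 147.6, Zfp91, a ubiquitin ligase of non-canonical NF-κB signaling, at 138.2, Zfp710 at 121.8 and Zfp263 at 111.3. Without correction for length, means ran from 100.8 to 1978 normalized counts with a median of 203.9. Only 14 genes lay above 500, and 48 lay below 200. Zfp106 was at 2312 and 2430.1 normalized counts in Ctrl and 1655 and 2079.8 in Eff, against 1659 and 1956 in LPS and 1762 and 1971 in LPSEff, so that the 2 Ctrl samples were the highest of the 8. The samples of Zfp710 lay close together, at 1291 and 1268 normalized counts in Ctrl and 1265 and 1099 in Eff, against 1213 and 1413 in LPS and 1114 and 1135 in LPSEff. Zfp91 shares exons on its strand with an annotated read-through gene (Gm44505), so that reads there may have been dropped by the counting.

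**Figure D1:**
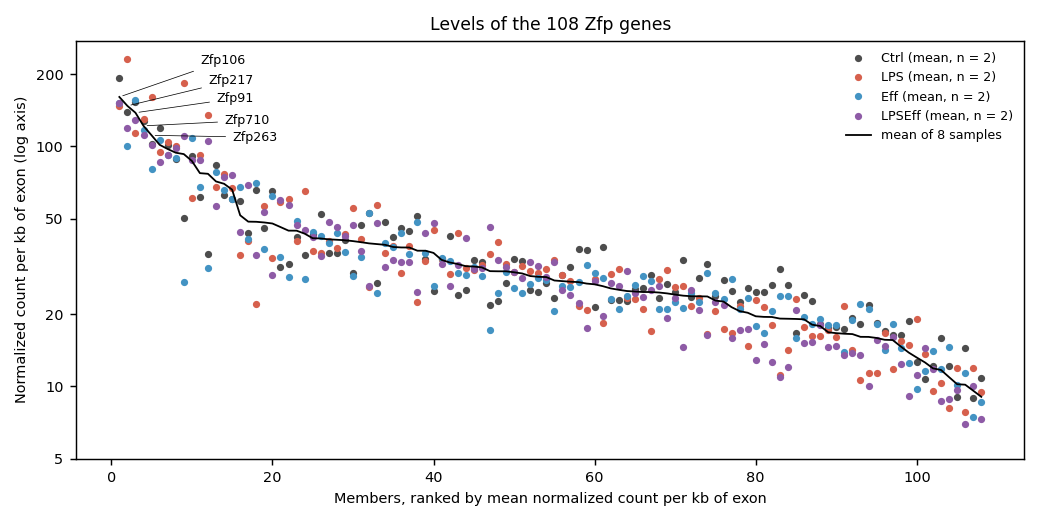
Normalized count per kb of exon (log axis) of the 108 Zfp genes, ranked by their mean over 8 samples (black line). Points are the means of the 2 samples of each group. The ranked means fall from 160.8 (Zfp106) to 9.04, and only a few genes lie above 100.

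The proteins differed in build. In their GENCODE coding sequences the C2H2 pattern occurred 9 times in the median and 36 times at most, 49 genes had at least 10 matches and 19 had 1 to 3. Zfp330 and Zfp703 had no match. A KRAB pattern was found in 22 of the 108 (20.4%) and in 85 of the 175 tested genes of the series below the threshold (48.6%), or in 28.7% and 60% with a wider pattern chosen after the data were seen. The SCAN pattern, a dimerization domain, was found in Zfp24, Zfp397 and Zfp444. The median level of the 22 KRAB genes was 24.3 per kb, beside 29.2 for the other 86. The most abundant KRAB gene was Zfp871, with a mean of 1085 normalized counts. Of the 108 genes, 28 (25.9%) lie on chromosome 7, beside 7.69% of the 12498 protein-coding genes tested. The 175 genes below the threshold lie there in 26.3%.

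The first comparison asked how the stimulation alone changed these genes. LPS/IFNγ raised 7 of the 108 Zfp genes and lowered 8 in naive Mϕ (LPS vs Ctrl, limma, adjusted p under 0.05 over all 16309 genes tested). Of all tested genes, 12.4% were called higher and 11.6% lower. The median log2 difference was -0.13 over the 108 genes and -0.01 over all genes, and 66 of the 108 were lower. The largest called rise was that of Zfp800 and the largest called fall that of Zfp146. With the replicate number as a block, 14 were called higher and 26 lower, beside 20.5% and 20.7% of all genes. Groups did not overlap in 23 genes that were higher and 37 that were lower, beside 28.4% and 30.9% of all genes.

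Zfp800 (ENSMUSG00000039841, chr6:28239087-28398108, minus strand), which encodes a C2H2 protein, was at 242 and 238 normalized counts in Ctrl and 194 and 226 in Eff, against 724 and 1098 in LPS and 585 and 834 in LPSEff. Both stimulated groups lay above all 4 unstimulated samples, with a log2 difference of 1.89 ± 0.26 (SE) and an adjusted p of 0.00161 (limma), a 3.70-fold rise. Zfp281 (ENSMUSG00000041483, chr1:136552639-136560840, plus strand), a GC-box-binding factor known from stem cell pluripotency, was at 206 and 224 normalized counts in Ctrl and 186 and 206 in Eff, against 384 and 529 in LPS and 369.7 and 397 in LPSEff. It rose 2.09-fold, by 1.07 ± 0.21 on the log2 scale (limma, adjusted p = 0.00852). Zfp513, whose human counterpart is a retinal dystrophy gene, was at 248 and 204 normalized counts in Ctrl and 414 and 434 in LPS and rose by 0.91 ± 0.27 (limma, adjusted p = 0.0445). Neither of these 2 genes had a stimulated sample as low as an unstimulated one.

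Smaller rises were called in 4 genes of which less is known. Zfp777, with a KRAB domain, was at 81.9 and 119 normalized counts in Ctrl and 190.1 and 174 in LPS and rose by 0.87 ± 0.25 on the log2 scale (limma, adjusted p = 0.0348). Zfp319 was at 204 and 197 normalized counts in Ctrl and 419 and 304 in LPS, a log2 difference of 0.83 ± 0.21 (limma, adjusted p = 0.0229). Zfp46 was at 128 and 128 normalized counts in Ctrl and 209.5 and 239.7 in LPS, a log2 difference of 0.80 ± 0.20 (limma, adjusted p = 0.0216). In all 3 genes both LPS samples lay above both Ctrl samples. Zfp263, among the 5 most abundant per kb, was at 491 and 445 normalized counts in Ctrl and 645 and 831 in LPS and rose by 0.65 ± 0.19 (limma, adjusted p = 0.039).

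The deepest fall was that of Zfp146 (ENSMUSG00000037029, chr7:29859912-29869215, minus strand), also named OZF, a protein made almost wholly of zinc fingers. It was at 267 and 287 normalized counts in Ctrl and 265 and 328 in Eff, against 85.4 and 99.5 in LPS and 109 and 185 in LPSEff, a 2.98-fold fall with a log2 difference of -1.58 ± 0.28 (limma, adjusted p = 0.00528). Zfp704 (ENSMUSG00000040209, chr3:9492080-9675213, minus strand), also known as glucocorticoid-induced gene 1, was at 522 and 433 normalized counts in Ctrl and 307 and 429.8 in Eff, against 163 and 181 in LPS and 185 and 154 in LPSEff. Its log2 difference was -1.46 ± 0.23 (limma, adjusted p = 0.00319), and all stimulated samples lay below all unstimulated ones. Zfp652 (ENSMUSG00000075595, chr11:95603479-95725941, plus strand), a repressor that works with CBFA2T3, was at 897 and 873 normalized counts in Ctrl and 829 and 944 in Eff, against 367 and 509 in LPS and 435 and 448 in LPSEff. It lost about as much in naive as in efferocytic Mϕ. Its log2 difference was -1.03 ± 0.20 (limma, adjusted p = 0.00796).

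Zfp326, a subunit of the DBIRD complex that couples splicing to transcription, was at 227 and 202 normalized counts in Ctrl and 202 and 185 in Eff, against 118 and 113 in LPS and 98.2 and 96.5 in LPSEff. The 2 samples of each group were close, and the log2 difference was -0.89 ± 0.20 (limma, adjusted p = 0.0144). Zfp367 was at 352 and 376 normalized counts in Ctrl and 135 and 247 in LPS and fell with a log2 difference of -0.99 ± 0.29 (limma, adjusted p = 0.04). Zfp706, a small protein with a single finger, was at 293 and 427 normalized counts in Ctrl and 124 and 189.9 in LPS with a log2 difference of -1.20 ± 0.32 (limma, adjusted p = 0.0279). The KRAB gene Zfp715 was at 328 and 345 normalized counts in Ctrl and 120.3 and 204 in LPS with -1.10 ± 0.33 (limma, adjusted p = 0.043). These 3 genes had replicates further apart than Zfp326 but no overlap between Ctrl and LPS. Zfp526, just inside the level threshold, was at 120.0 and 123 normalized counts in Ctrl and 69.8 and 72.1 in LPS, a log2 difference of -0.76 ± 0.22 (limma, adjusted p = 0.036).

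All 15 calls held with the replicate block, and Zfp800, Zfp146 and Zfp704 were called under every alternative tried. Zfp281 and Zfp652 missed the threshold only when the first Ctrl sample was left out (limma, adjusted p = 0.0588 and 0.0527). Each of the other 10 calls was lost without at least 1 Ctrl or LPS sample. Of 19 alternatives, those that ended the call numbered 2 for Zfp706, 4 for Zfp326, 6 each for Zfp319, Zfp46 and Zfp715, 7 for Zfp513, 9 for Zfp367, 10 each for Zfp777 and Zfp263 and 11 for Zfp526. Zfp513 missed the threshold with edgeR (adjusted p = 0.0513) and without any 1 Ctrl or LPS sample (limma, adjusted p of 0.101 to 0.2). Zfp526 missed it with DESeq2 (adjusted p = 0.125) and without any 1 of the 8 samples (limma, adjusted p of 0.0565 to 0.14). The counts of higher and lower genes became 1 and 3 without Ctrl replicate 1, 3 and 3 without Ctrl replicate 2, 7 and 4 without LPS replicate 1, and 4 and 7 without LPS replicate 2. Without Eff replicate 2, which is in neither group, they became 5 and 5. With 2 samples in each group the smallest p of a two-sided exact permutation test is 0.333, and every call therefore rests on the spread that limma shares across genes.

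**Figure D2:**
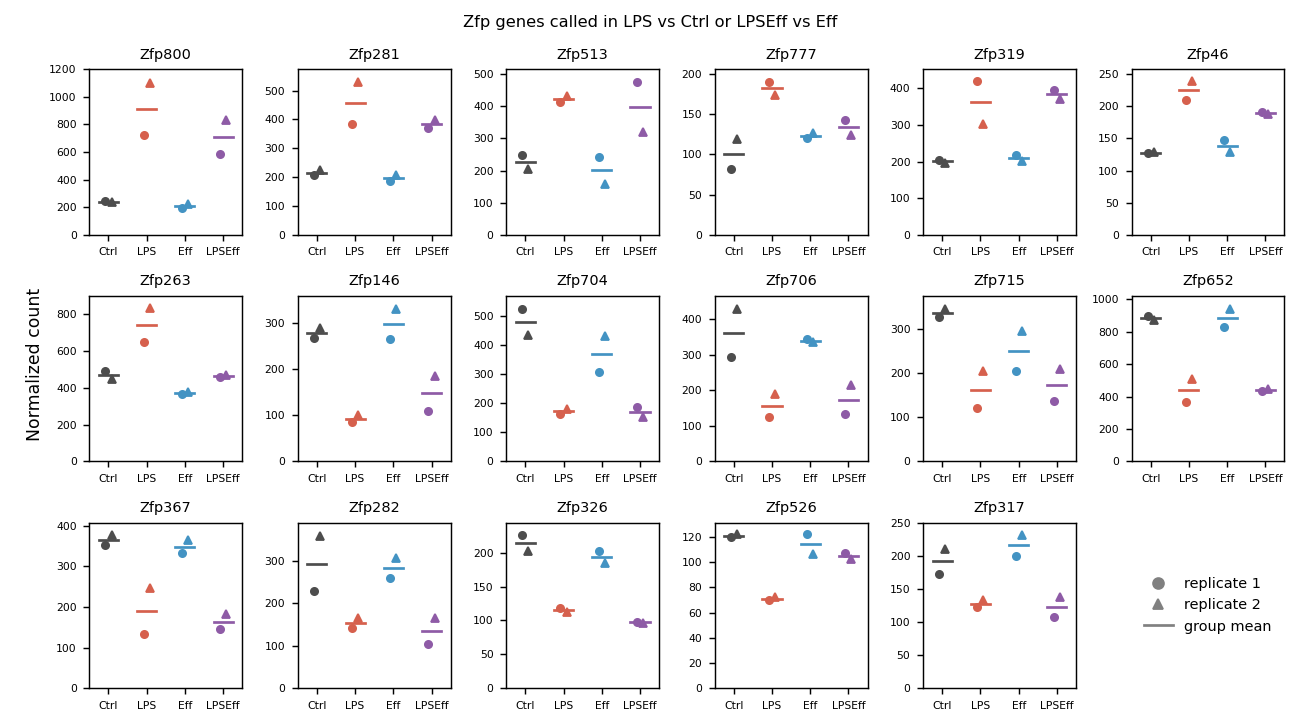
Normalized counts of the 17 Zfp genes called in LPS vs Ctrl or LPSEff vs Eff, in Ctrl, LPS, Eff and LPSEff (circles, replicate 1; triangles, replicate 2; lines, group means). The first 7 genes were higher in LPS than in Ctrl and the other 10 lower, and Zfp777 and Zfp526 lie closer together between Eff and LPSEff than between Ctrl and LPS.

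The next comparison asked the same of Mϕ that had been co-cultured with apoptotic cells. These are called efferocytic here, although they were taken by CD45 and not by uptake. In LPSEff vs Eff, which shares no sample with LPS vs Ctrl, 4 Zfp genes were called higher and 7 lower (limma), beside 10.7% and 8.95% of all tested genes. The median log2 difference was -0.07, beside 0.01 over all genes. With the replicate block 12 were higher and 18 lower, beside 19% and 18% of all genes. Groups did not overlap in 25 genes that were higher and 26 that were lower, beside 29.5% and 30.4% of all genes. Of the 15 genes called in naive Mϕ and the 11 called in efferocytic Mϕ, 9 were the same genes with the same direction, 60% of the first list and 81.8% of the second. Over all tested genes these shares were 69.1% and 84.0%. The sign was the same in 93 of the 108 genes, or 86.1%, beside 83.1% of all tested genes.

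Zfp800 rose by 1.73 ± 0.26 on the log2 scale (limma, adjusted p = 0.00283) and kept its call under every alternative tried. Zfp281 rose by 0.97 ± 0.21 (limma, adjusted p = 0.0147), with LPSEff samples at 370 and 397 above Eff samples at 186 and 206. Zfp513 was at 242 and 159 normalized counts in Eff and 475 and 321 in LPSEff, a log2 difference of 0.99 ± 0.27 (limma, adjusted p = 0.038). Zfp319 was at 217 and 203 normalized counts in Eff and 395 and 372 in LPSEff, a log2 difference of 0.87 ± 0.21 (limma, adjusted p = 0.022). These were the 4 called rises, all of them called in naive Mϕ too.

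Falls were called in Zfp704 (log2 difference -1.10 ± 0.23), Zfp367 (-1.10 ± 0.29), Zfp146 (-1.04 ± 0.28), Zfp326 (-0.98 ± 0.20) and Zfp652, all called in naive Mϕ as well. The limma adjusted p of these 5 ranged from 0.0105 (Zfp652) to 0.0333 (Zfp146). A further 2 were called only here. Zfp282, a KRAB gene by the wider pattern, was at 228 and 359 normalized counts in Ctrl and 260.3 and 307 in Eff, against 141 and 165 in LPS and 104 and 165 in LPSEff, with a log2 difference of -1.11 ± 0.30 (limma, adjusted p = 0.0364) in efferocytic and -0.91 ± 0.30 (limma, adjusted p = 0.0641) in naive Mϕ. Zfp317 was at 173 and 211 normalized counts in Ctrl and 199.8 and 232 in Eff, against 123 and 133 in LPS and 107 and 137 in LPSEff, with -0.83 ± 0.23 (limma, adjusted p = 0.0373) and -0.58 ± 0.23 (limma, adjusted p = 0.108). Both genes were lower in each stimulated sample than in any unstimulated one. Apart from that of Zfp800, each call was lost without at least 1 Eff or LPSEff sample, and under 2 (Zfp704 and Zfp652) to 8 (Zfp317) of the 19 alternatives. Counts of higher and lower genes became 2 and 2 without Eff replicate 1, 2 and 0 without Eff replicate 2, 1 and 1 without LPSEff replicate 1, and 3 and 4 without LPSEff replicate 2, as also without either Ctrl sample.

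**Figure D3:**
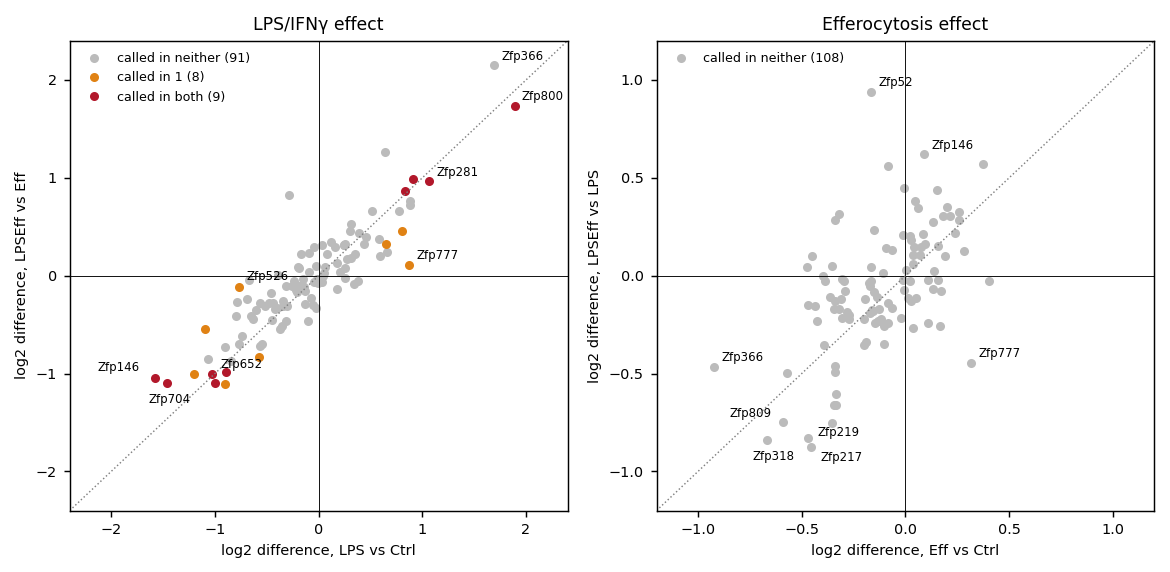
Log2 differences of the 108 Zfp genes, LPSEff vs Eff against LPS vs Ctrl (left) and LPSEff vs LPS against Eff vs Ctrl (right, on a narrower scale), coloured by limma calls. The dotted line marks equal differences. On the left 9 genes were called in both, and on the right none was called in either.

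How many genes counted as lower depended on scaling. The deposited size factors left the stimulated samples with larger totals, 8470249 to 9489294 normalized counts in LPS and LPSEff beside 6587737 to 6951788 in Ctrl and Eff. Rescaling all samples to equal totals shifted the median of all genes to -0.40 in LPS vs Ctrl and -0.44 in LPSEff vs Eff. Of the 108 Zfp genes, 2 were then called higher and 43 lower in LPS vs Ctrl, beside 8.71% and 26.5% of all genes. In LPSEff vs Eff they were 1 higher and 34 lower, beside 7.46% and 26.7% of all genes, and the medians of the Zfp genes were -0.53 and -0.52. On each scale the median of the Zfp genes lay below that of all genes. On the deposited scale, their medians between samples of the same replicate number were -0.23 (replicate 1) and -0.02 (replicate 2) in LPS vs Ctrl. Over all genes these were -0.02 and -0.00. In LPSEff vs Eff they were -0.03 and -0.11, beside 0.02 and -0.01 over all genes. The 175 tested genes of the series below the threshold had medians of -0.28 in LPS vs Ctrl and -0.33 in LPSEff vs Eff. Zfp800 was still called higher with equal totals in both comparisons (log2 difference 1.49 and 1.29), and Zfp281 in LPS vs Ctrl (0.67). The other 5 rises in naive Mϕ kept their sign and missed the threshold, while all 8 falls were still called.

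**Figure D4:**
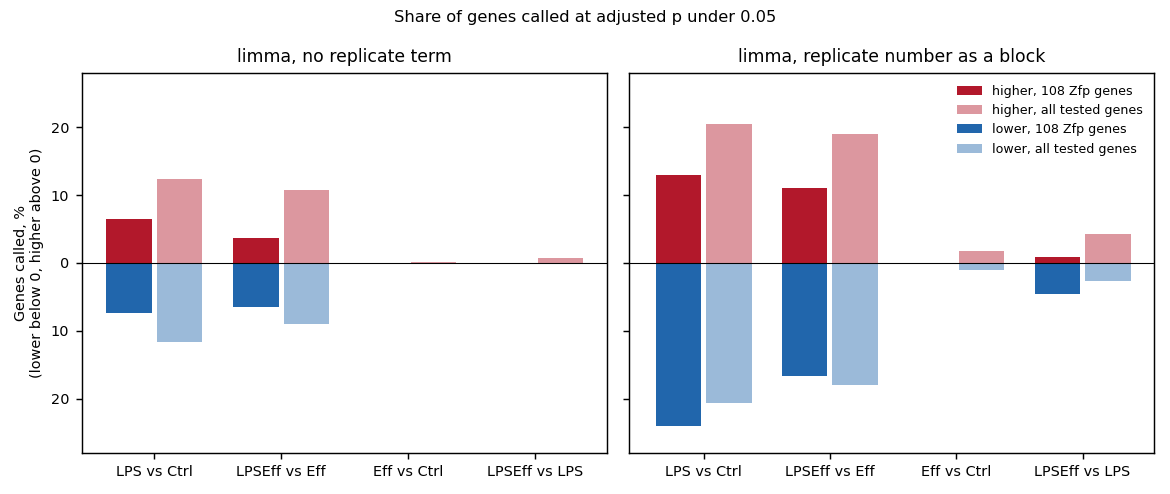
Percent of genes called higher (above 0) and lower (below 0) at adjusted p under 0.05 among the 108 Zfp genes and among all 16309 tested genes, without (left) and with (right) the replicate number as a block. Without the block, 7 and 8 of the 108 were called in LPS vs Ctrl and none in Eff vs Ctrl or LPSEff vs LPS.

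Some Zfp genes moved as far as the called ones but had wide replicates. These were chosen after their values were seen. Zfp366 (ENSMUSG00000050919, chr13:99321194-99387164, plus strand), known as DC-SCRIPT, a dendritic cell protein that acts on nuclear receptors, was at 206 and 449 normalized counts in Ctrl and 99.9 and 255 in Eff, against 521 and 1868 in LPS and 609 and 838 in LPSEff. Its log2 differences of 1.70 ± 0.66 in naive and 2.15 ± 0.66 in efferocytic Mϕ were, with that of Zfp800, the largest of the 108 genes. It did not pass in either comparison (limma, adjusted p = 0.102 and 0.0538), while with the replicate block it passed in both (0.000363 and 8.11e-05). Each stimulated sample lay above all 4 unstimulated ones. Zfp90, a KRAB gene, was at 148 and 164 normalized counts in Eff and 609 and 232 in LPSEff, with a log2 difference of 1.27 ± 0.46 (limma, adjusted p = 0.0911, or 0.00624 with the block). Its first LPSEff sample stood far above the second. In LPS vs Ctrl the largest log2 difference of a KRAB gene among the 108 was 0.87, that of Zfp777, or 0.88 with the wider pattern. Zfp654 was at 270.4 and 209 normalized counts in Ctrl and 295 and 232 in Eff, against 523 and 368 in LPS and 545 and 364 in LPSEff. It was higher in stimulated samples in both comparisons, by 0.88 ± 0.28 and 0.77 ± 0.28 (limma, adjusted p = 0.0559 and 0.0979, or 0.000747 and 0.00205 with the block). Zfp266, also a KRAB gene, was at 217 and 323 normalized counts in Ctrl and 173 and 323 in Eff, against 80.2 and 198 in LPS and 92.6 and 183 in LPSEff, with -1.06 ± 0.51 and -0.85 ± 0.51 (limma, adjusted p = 0.18 and 0.301, or 0.00142 and 0.00594 with the block). In Zfp266 the second LPS sample came close to the first Ctrl sample. The groups overlapped in LPSEff vs Eff, where the second LPSEff sample (183) lay above the first Eff sample (173).

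Efferocytosis itself gave no called Zfp gene in either of its separate comparisons. In Eff vs Ctrl none passed with limma, edgeR, DESeq2 or the replicate block in limma (1 was lower with edgeR and the block together), beside 0.215% of all genes called higher and 0.0368% lower. At an unadjusted p under 0.05, none was higher and 2 were lower, beside 3.53% and 2.6% of all genes. In LPSEff vs LPS none was called by limma, edgeR or DESeq2, beside 0.73% and 0.0429% of all genes, with 1 higher and 6 lower at an unadjusted p under 0.05 (6.19% and 4.11% of all genes). With the replicate block, 1 was higher and 5 lower in LPSEff vs LPS, beside 4.32% and 2.65% of all genes. The medians were -0.12 and -0.07, beside -0.01 and -0.00 over all genes. The sign was the same in both comparisons, which share no sample, in 81 of the 108 genes (75%, beside 67.6% of all genes).

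The single call was made by the mean of both efferocytosis effects, with 0 genes higher and 1 lower, beside 1.62% and 0.3% of all genes. It was Zfp318 (ENSMUSG00000015597, chr17:46694512-46731846, plus strand), which in B cells is needed for the IgD transcript. Zfp318 was at 493 and 446 normalized counts in Ctrl and 311 and 280.2 in Eff, against 332 and 395 in LPS and 183 and 223 in LPSEff, so that each co-cultured sample lay below both samples without co-culture of the same stimulation. The averaged log2 difference was -0.75 ± 0.14 (limma, adjusted p = 0.0392), a 1.68-fold fall, made of -0.67 ± 0.20 in Eff vs Ctrl (limma, adjusted p = 0.439) and -0.84 ± 0.20 in LPSEff vs LPS (0.145). The call was lost, at an adjusted p of 0.0904 to 0.167 (limma), when any sample but LPS replicate 1 was left out, and 2 genes were called lower without that sample. It was also lost, at an adjusted p of 0.062 (limma), when all genes with a mean above 0 were tested. With the replicate block 7 were lower and 1 higher in the averaged effect, beside 5.2% and 6.11% of all genes. Fibroblast marker sums were higher in every co-cultured sample than in the samples without co-culture of the same stimulation (5580 to 9226 beside 1503 to 1626, and 12626 to 15228 beside 3473 to 6238), and their part in this fall was not tested.

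Groups did not overlap in 7 genes that were higher and 26 that were lower in Eff than in Ctrl, beside 16.3% and 17.8% of all genes. In LPSEff vs LPS these were 14 and 18, beside 19.3% and 17% of all genes. The 5 largest differences of each kind are given as values. Zfp217 was at 773 and 1019.6 normalized counts in Ctrl and 601 and 697 in Eff, against 967 and 2022 in LPS and 656 and 888 in LPSEff, with a log2 difference of -0.87 ± 0.34 in LPSEff vs LPS (limma, adjusted p = 0.421, or 0.0217 with the replicate block). Zfp219 was at 291 and 224 normalized counts in Ctrl and 202 and 169 in Eff, against 222 and 254 in LPS and 143 and 124 in LPSEff, with -0.83 ± 0.22 (limma, adjusted p = 0.203, or 0.0241 with the block). Both genes were lower in LPSEff than in LPS. Both were also lower in Eff than in Ctrl, without overlap. Zfp629 (-0.75 ± 0.29) and Zfp809 (-0.75 ± 0.35) were the other 2, and differed in the same direction. In Eff vs Ctrl, besides Zfp318, the lowest were Zfp809 (-0.59 ± 0.35), Zfp626 (-0.57 ± 0.31), Zfp275 (-0.47 ± 0.25) and Zfp597 (-0.47 ± 0.30), with limma adjusted p from 0.946 (Zfp275) to 0.999 (Zfp597). Zfp809, which silences retroviruses by binding their primer binding site, was at 145 and 137 normalized counts in Ctrl and 83.2 and 104 in Eff, against 90.5 and 133 in LPS and 46.7 and 90.1 in LPSEff, with both LPSEff samples below both Ctrl samples.

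Of the 7 genes that were higher in Eff than in Ctrl without overlap, the 5 with the largest differences were Zfp777 (log2 difference 0.32 ± 0.25), Zfp771 (0.26 ± 0.23), Zfp768 (0.24 ± 0.23), Zfp276 (0.19 ± 0.18) and Zfp553 (0.15 ± 0.22), each at a limma adjusted p of 0.999. Of the 14 that were higher in LPSEff than in LPS, these were Zfp146 (0.62 ± 0.28), Zfp526 (0.56 ± 0.22), Zfp608 (0.45 ± 0.24), Zfp553 (0.44 ± 0.22) and Zfp64 (0.32 ± 0.24), with limma adjusted p from 0.416 to 0.737. Zfp553 and Zfp771 are neighbours on chromosome 7, at chr7:126832057-126840069 and chr7:126843239-126854136. Zfp553 was at 110.4 and 114 normalized counts in Ctrl and 134 and 116 in Eff, against 78.9 and 83.3 in LPS and 118 and 103 in LPSEff, with the stimulated naive samples lowest. Higher without overlap in both comparisons were Zfp553, Zfp771, Zfp768 and Zfp236, with averaged log2 differences of 0.29 ± 0.16, 0.27 ± 0.16, 0.23 ± 0.16 and 0.20 ± 0.12.

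Whether the LPS/IFNγ effect differed between efferocytic and naive Mϕ was tested as an interaction. No Zfp gene and no gene at all was called (limma, and the same with edgeR, DESeq2 and the replicate block for the Zfp genes), and none of the 108 had an unadjusted p under 0.05, beside 1.91% of all genes. The smallest p values were those of Zfp777 (interaction log2 -0.76 ± 0.35), Zfp526 (0.65 ± 0.31), Zfp106 (0.40 ± 0.27), Zfp275 (0.52 ± 0.35) and Zfp68 (0.63 ± 0.45), each at an adjusted p of 0.9999. Zfp777 was at 81.9 and 119 normalized counts in Ctrl and 120.1 and 126 in Eff, against 190.1 and 174 in LPS and 143 and 124 in LPSEff, and its rise was 0.87 ± 0.25 in naive and 0.11 ± 0.25 in efferocytic Mϕ. Zfp526 was at 120.0 and 123 normalized counts in Ctrl and 123 and 107 in Eff, against 69.8 and 72.1 in LPS and 108 and 103 in LPSEff, so that the LPS samples alone were low.

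Among the genes known by function, 9 act on RNA or ribosomes, with medians of -0.40 and -0.31 in the LPS/IFNγ comparisons. In each of these 1 of the 9 was called, Zfp326, which was lower, beside 11.6% and 8.95% of all tested genes. Zfp598, a ubiquitin ligase that marks collided ribosomes, was at 307 and 291 normalized counts in Ctrl and 366 and 294 in Eff, against 494 and 405 in LPS and 444 and 409 in LPSEff, with 0.58 ± 0.20 in LPS vs Ctrl (limma, adjusted p = 0.0693). Zfp593, a factor of large ribosomal subunit assembly, was at 133 and 119.7 normalized counts in Ctrl and 162 and 126 in Eff, against 76.3 and 74.1 in LPS and 83.1 and 104 in LPSEff, with -0.74 ± 0.24 (limma, adjusted p = 0.0597). Each of these 2 genes had no overlap between stimulated and unstimulated samples, in opposite directions, and neither passed. Zfp622, which also acts on the large subunit, was at 348 and 543 normalized counts in Ctrl and 456 and 484 in Eff, against 481 and 609 in LPS and 567 and 500.0 in LPSEff, with LPS and Ctrl samples overlapping. Zfp207, a spindle and splicing protein also named BuGZ, had a log2 difference of 0.12 ± 0.21, Zfp346, which binds double-stranded RNA, of -0.45 ± 0.25, Zfp638, a splicing factor, of -0.61 ± 0.36 and Zfp830, a pre-mRNA processing factor, of -0.34 ± 0.27.

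Of 7 promoter-binding factors, 1 was called in each of the LPS/IFNγ comparisons, again Zfp281, with medians of -0.02 and 0.07. It was called higher, beside 12.4% and 10.7% of all tested genes. Zfp148, which binds the same GC-rich sites as Zfp281, was at 359.9 and 512 normalized counts in Ctrl and 341 and 536 in Eff, against 351 and 522 in LPS and 345 and 479.7 in LPSEff. Its log2 differences were smaller than the spread of its replicates (-0.00 ± 0.32 and -0.07 ± 0.32). Zfp143, a factor of small nuclear RNA promoters, had 0.25 ± 0.28 and 0.07 ± 0.28. Zfp384 had -0.02 ± 0.26 and 0.10 ± 0.26, Zfp740 -0.04 ± 0.32 and 0.29 ± 0.32, and Zfp410, known for driving Chd4, -0.14 ± 0.19 and -0.29 ± 0.19. Zfp219 had -0.10 ± 0.22 and, with LPSEff samples below both Eff samples, -0.46 ± 0.22 (limma, adjusted p = 0.794 and 0.198). With equal totals the medians of the 7 were -0.42 and -0.37, so that the second changed sign. Only Zfp281 thus passed, and its difference from Zfp148 was not tested.

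The 11 large zinc finger cofactors had medians of 0.25 and 0.24 in the LPS/IFNγ comparisons, and none was called in either. With equal totals the medians were -0.15 and -0.21, beside -0.40 and -0.44 over all genes. On that scale 4 and 3 of the 11 were called lower, beside 26.5% and 26.7% of all genes. Of the 7 that were higher in each comparison, 5 and 6 changed sign on that scale. Zfp687 and Zfp592, partners in a complex with ZMYND8, had 0.44 ± 0.19 and -0.40 ± 0.21 in LPS vs Ctrl, opposite in sign. Zfp292 had 0.31 ± 0.18, Zfp407 0.35 ± 0.19, Zfp644, a partner of the methyltransferase G9a, 0.25 ± 0.33, Zfp609, which binds the cohesin loader, 0.25 ± 0.21, Zfp335 0.03 ± 0.25 and Zfp91 -0.44 ± 0.18. The lowest were Zfp608, with -0.69 ± 0.24 (limma, adjusted p = 0.0746), Zfp91, Zfp592 and Zfp318, with -0.37 ± 0.20. With equal totals the values of Zfp292, Zfp407, Zfp644, Zfp609 and Zfp335 in LPS vs Ctrl were below 0 (-0.09, -0.05, -0.15, -0.15 and -0.37). Zfp217 was at 0.66 ± 0.34 in naive Mϕ, where the second LPS sample stood alone at 2022. The 3 silencers of retroelements or imprinted genes were all lower in both comparisons, and none passed, with -0.31 ± 0.27 and -0.47 ± 0.27 for Zfp445, which guards imprints, -0.20 ± 0.20 and -0.11 ± 0.20 for Zfp568, a repressor of Igf2, and -0.36 ± 0.35 and -0.52 ± 0.35 for Zfp809.

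Zfp genes with and without KRAB were counted separately. Of the 22 KRAB genes, 1 was called higher (Zfp777) and 1 lower (Zfp715) in LPS vs Ctrl and none in LPSEff vs Eff, with medians of -0.16 and -0.11. Of all tested genes, 12.4% and 11.6%, then 10.7% and 8.95%, were called. These counts depend on the pattern. With the wider one, chosen after the data were seen, 31 genes had KRAB. Of these, 2 were called higher and 1 lower in LPS vs Ctrl, then 0 and 2 in LPSEff vs Eff. Of the 83 genes without a KRAB or SCAN pattern, 6 were higher and 7 lower, then 4 and 7, with medians of -0.09 and -0.04. Over all 107 tested genes of the series with KRAB, expressed above the threshold or not, 5 were called higher and 4 lower in LPS vs Ctrl and 4 and 2 in LPSEff vs Eff, and the medians were -0.27 and -0.24 in the LPS/IFNγ comparisons. In the efferocytosis comparisons 18 of the 22 KRAB genes were lower in Eff than in Ctrl and 16 in LPSEff than in LPS, with medians of -0.18 in each. Among the 83 others 49 were lower in each, with medians of -0.08 and -0.03. Of all 16309 tested genes, 8404 and 8203 were lower. Between samples of the same replicate number, the medians of the 22 in Eff vs Ctrl were -0.33 (replicate 1) and -0.04 (replicate 2). In LPSEff vs LPS they were -0.19 and -0.23. None of the 22 was called in either (limma, with 0 and 1 at an unadjusted p under 0.05, and 0 and 2 with the replicate block). Related KRAB genes share long stretches of sequence, so that reads of near copies may be split or lost, and such genes are uncertain.

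The partners of these proteins were followed with a list of 40 corepressor and heterochromatin genes, all tested. In LPS vs Ctrl 3 were called higher and 6 lower (limma) with a median of -0.32, beside 12.4% and 11.6% of all tested genes. In LPSEff vs Eff 1 and 3 were called with a median of -0.38, beside 10.7% and 8.95%. With the replicate block these counts were 7 and 8 (20.5% and 20.7% of all genes), then 3 and 15 (19% and 18%). With equal totals they were 2 and 15 (8.71% and 26.5%), then 1 and 20 (7.46% and 26.7%). None was called in Eff vs Ctrl or LPSEff vs LPS (limma, with 1 and 0 at an unadjusted p under 0.05, 0 by edgeR, and 1 lower by DESeq2 in Eff vs Ctrl). Trim28, the scaffold that KRAB domains bind, was at 1061 and 1153 normalized counts in Ctrl and 1479 and 1069 in Eff, against 636 and 553 in LPS and 818 and 709 in LPSEff. It fell in both comparisons, by a log2 difference of -0.90 ± 0.21 (limma, adjusted p = 0.0166) and -0.72 ± 0.21 (0.0437). Setdb1, the methyltransferase it recruits, was at 398 and 406 normalized counts in Ctrl and 394 and 416 in Eff, against 219.9 and 257 in LPS and 274 and 312 in LPSEff, with -0.76 ± 0.18 (limma, adjusted p = 0.0199) and -0.47 ± 0.18 (0.116). Stimulated samples of both genes lay below all unstimulated ones.

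Dnmt1, the maintenance DNA methyltransferase, was at 2039 and 2129 normalized counts in Ctrl and 2077 and 2175 in Eff, against 568 and 718 in LPS and 705 and 610.4 in LPSEff, the deepest fall on the list (-1.70 ± 0.18 and -1.69 ± 0.18, limma, adjusted p = 0.000538 and 0.000584). Its partner Uhrf1 fell with it (-1.51 ± 0.23 and -1.50 ± 0.23, limma, adjusted p = 0.00276 and 0.00335). Dnmt1 and Uhrf1 are also known to follow the cell cycle. Daxx, a histone H3.3 chaperone, was at 279.9 and 376 normalized counts in Ctrl and 346 and 367 in Eff, against 2660.5 and 3163 in LPS and 2693 and 2547 in LPSEff. It rose by 3.16 ± 0.20 and 2.87 ± 0.20 (limma, adjusted p = 5.39e-05 and 6.13e-05), the largest change of the 40. In naive Mϕ Morc3 (1.03 ± 0.23) and the demethylase Kdm1a (0.83 ± 0.20) were also called higher, and Morc2a (-1.01 ± 0.28) and Dnmt3a (-0.98 ± 0.22) lower. Without Ctrl replicate 1, 2 were higher and 2 lower in LPS vs Ctrl, without Ctrl replicate 2, 2 and 3, without LPS replicate 1, 4 and 4, and without LPS replicate 2, 1 and 5.

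A last comparison concerned the replicate number, which the labels give and do not explain. In the blocked fit (limma), 25 of the 108 Zfp genes were higher and 5 lower in replicate 2 than in replicate 1, beside 15.6% and 7.84% of all tested genes. The median log2 difference between replicates was 0.17, beside 0.10 over all genes, and 0.38 for the 22 KRAB genes. The largest were those of Zfp52 (log2 1.21), Zfp366 (1.19), Zfp266 (0.93), Zfp770 (0.86) and Zfp120 (0.77), with limma adjusted p from 0.00078 to 0.0078. Zfp52, a KRAB gene, was at 131 and 246 normalized counts in Ctrl and 99.9 and 256 in Eff, against 81.5 and 266 in LPS and 207 and 389.6 in LPSEff, higher in the second sample of each group. Zfp703, a corepressor without a C2H2 match, went the other way, at 482 and 179 normalized counts in Ctrl and 479 and 301 in Eff, against 296 and 142 in LPS and 401 and 232 in LPSEff (log2 -0.98, limma, adjusted p = 0.0013).

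**Figure D5:**
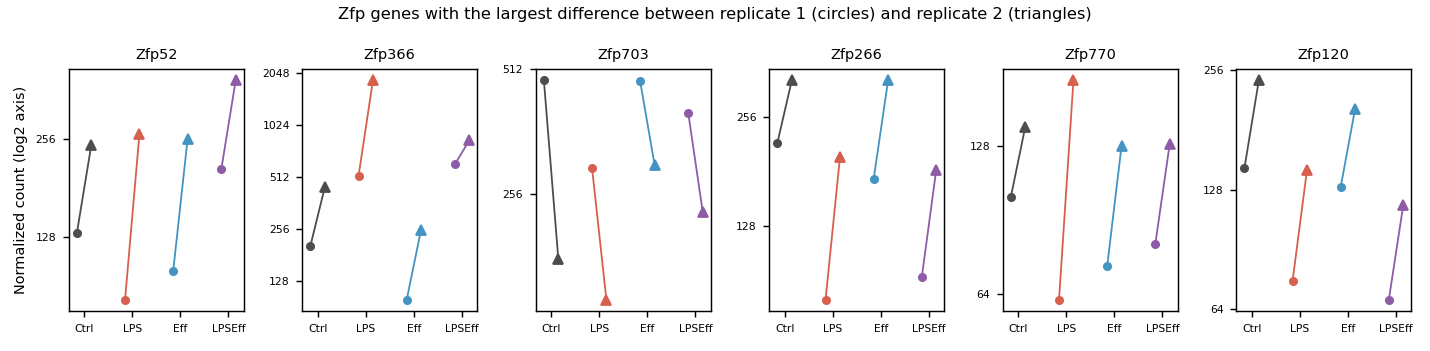
Normalized counts (log2 axis) of the 6 Zfp genes with the largest called difference between replicate 1 (circles) and replicate 2 (triangles), in Ctrl, LPS, Eff and LPSEff. In 5 genes each second sample lies above the first, and in Zfp703 each lies below.

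Of the genes named here, Zfp652 shares exons on its strand with Phospho1, and Zfp644 with Gm28039. In all, 7 of the 108 genes share exons on their strand with another gene, and 69 overlap exons of a gene on the other strand. Among the called genes these include Zfp800, Zfp513 (with Snx17), Zfp319 (with Usb1), Zfp704, Zfp706 and Zfp526 (with Gsk3a). By default, htseq-count counts the reads on a gene's own strand, which keeps such pairs apart in a library that keeps strand.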

How the data were processed

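Gene expression was measured in 8 samples of BMDMs, 2 each of Ctrl, LPS, Eff and LPSEff, by single-end sequencing (50 cycles) of rRNA-depleted total RNA. The authors used cutadapt for trimming, bowtie2 to take out rRNA, STAR to map the rest to mm39, htseq-count in its default mode and DESeq2. By default htseq-count counts reads on the strand of the gene. Tool versions and the annotation release are not given in the sources used here.

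The authors deposited a signal per gene, the normalized count (reads divided by 1 size factor per sample), so that read counts could be recovered: 100% of values were whole multiples of the smallest nonzero value of the sample (tolerance 0.01). These gave 3481288 to 12020918 reads per sample, and 3 reads equal at most 5.71 normalized counts. Such floors cover counting error only. Symbols, exons and start sites came from GENCODE on GRCm39 (54749 of 55359 identifiers found). Protein patterns were searched in translated GENCODE coding sequences, and no protein sequence is printed.

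The test was limma 3.58.1 (R 4.3.3) with trend on log2(normalized count + 1) for 16309 genes with a mean of at least 10, with 4 group means in 1 fit (4 residual degrees of freedom) and Benjamini-Hochberg adjustment over all of them. A fold change on this scale understates low genes. Of the contrasts, only LPS vs Ctrl was also tried on simulated data. The alternatives were pseudocounts, filters, scalings, edgeR 4.0.16, DESeq2 1.42.0, left-out samples and the replicate number as a block (3 residual degrees of freedom). The labels do not say that equal numbers mark a shared preparation, but deviations of same-numbered samples correlated in all 6 pairs of groups (r = 0.404 to 0.595 across genes, which are not independent), so that blocked values stand beside the main ones.

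The members, lists and tests were chosen with earlier results of these data known. Genes were named by these rules: those called in the LPS/IFNγ comparisons (up to 12 and 8 a direction), those called for efferocytosis or else the 5 largest without overlap, the 5 of smallest interaction p, the 5 highest per kb, those with listed functions, the 3 either side of the threshold, and the called corepressor genes (up to 5 a comparison). Others are said to be chosen afterwards.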

Additional observations from a re-analysis of the deposited data

Results flagged for a closer look

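In 3 Zfp genes, both samples of a contrast moved one way in one setting and both the opposite way in the other. Zfp777 was higher in Eff (120.1 and 126) than in Ctrl (81.9 and 119) and lower in LPSEff (143 and 124) than in LPS (190.1 and 174), a difference between both efferocytosis effects of -0.76 ± 0.35 (SE) on the log2 scale (limma interaction, adjusted p = 0.9999). Zfp46 was higher in Eff (147 and 129) than in Ctrl (128 and 128) and lower in LPSEff (191 and 188) than in LPS (209.5 and 239.7), a difference of -0.35 ± 0.28 (limma, adjusted p = 0.9999). Zfp646 was lower in LPS (404 and 473) than in Ctrl (529 and 474) and higher in LPSEff (395 and 389.6) than in Eff (377 and 363), a difference of 0.28 ± 0.25 (limma, adjusted p = 0.9999). None of the 3 differences passed the interaction test, with 2 samples per group.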

How the results depend on the processing

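Among the genes named for a comparison no direction was reversed under any alternative. Of the 30 genes named for their function, 8 of 12 that were higher in LPS vs Ctrl and 13 of 15 in LPSEff vs Eff were lower with equal totals, none of them called higher before. Of the 30, 3 and 0 took the other sign under another setting, and 8 and 8 without 1 sample. Pseudocounts of 0.5 and 5 and a member threshold of 200 left all counts of called Zfp genes within 1.5 times the values reported. With the replicate block in limma, LPS vs Ctrl gave 14 higher and 26 lower Zfp genes, LPSEff vs Eff 12 and 18, LPSEff vs LPS 1 and 5, and the averaged efferocytosis effect 1 and 7, while the corepressor list gave 7 higher in LPS vs Ctrl, 3 higher and 15 lower in LPSEff vs Eff, and 1 lower in each efferocytosis comparison. With edgeR and the replicate block together (chosen after the data were seen) these were 16 and 25, 14 and 18, 1 and 5, and 7 lower in the averaged effect, with 1 lower in Eff vs Ctrl, and for the list 8 higher in LPS vs Ctrl, 4 and 15 in LPSEff vs Eff, and 1 lower in each efferocytosis comparison. The blocked fits moved no other count by over 1.5 times. With equal totals LPS vs Ctrl gave 2 and 43 and LPSEff vs Eff 1 and 34, and the list 15 and 20 lower. With all genes of a mean above 0, LPS vs Ctrl gave 2 and 5 and the averaged effect 0 lower. With only the groups compared in the fit, LPS vs Ctrl gave 3 and 4. With a mean of at least 50, LPS vs Ctrl gave 13 lower, and with at least 100 in every group 5. TMM factors gave 7 higher in LPSEff vs Eff and 2 higher of the list, edgeR 2 and DESeq2 3 of the list, and DESeq2 1 lower of the list in Eff vs Ctrl. A member threshold of 50 gave 1 higher in the averaged effect. For these changes the cause was not tested.

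Leaving out 1 sample at a time (the lone sample then shares the spread of the others) gave 1 to 7 higher and 3 to 7 lower Zfp genes in LPS vs Ctrl, 1 to 5 higher and 0 to 8 lower in LPSEff vs Eff, 0 to 2 lower in the averaged effect, and 1 to 4 higher and 2 to 6 lower of the list in LPS vs Ctrl. The fit of only the groups compared could not give the averaged effect or the interaction. Depth limits low genes: 3 reads were worth 5.71 normalized counts in Ctrl replicate 1, the shallowest sample. Calls in LPS vs Ctrl fell most without a Ctrl sample, be it this one or replicate 2, the deepest of all. The part of depth in this was not tested.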
